A study of Mus musculus with 6 samples.

Results

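Lysine acetylation is written by acetyltransferases, erased by deacetylases and read by proteins with a bromodomain. In this study Integrin-β1 itself carried a substitution that mimics an acetylated lysine, K794Q, so the genes described here are those whose products could set, remove or read acetyl-lysine in the same cells. They were 37 mouse genes named by symbol: 11 zinc-dependent deacetylases (Hdac1 to Hdac11), 7 NAD-dependent deacetylases (Sirt1 to Sirt7), 16 acetyltransferases and 3 bromodomain readers (Brd2, Brd3 and Brd9). All 37 were among the 23420 symbols of the deposited table. The low count filter kept 36 of them, out of 11608 genes tested in all.

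The cells were eEnd2, an endothelial line from mouse embryos, expressing a human Integrin-β1A chimera with an extracellular GFP tag from a plasmid that carries a fragment of the human actin beta promoter. The chimera was wildtype in β1-WT-GFP cells and had glutamine in place of the lysine in β1-K794Q-GFP cells, and both groups kept the mouse Integrin-β1 gene. Total RNA of 3 confluent, untreated cultures of each group (A, B and C) was sequenced after depletion of ribosomal RNA. GFP-positive populations with low and with high fluorescence were sorted, they are not described as single clones, and the population behind each culture was not given in the labels. The p values therefore measure the spread between these cultures, which may come from a single sort of each construct.

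Totals lay between 9589826 and 15287191 counts per culture, so that 3 counts, the limit a count of 0 allows, stood at 0.209 to 0.3 CPM (normalized counts per 1000000 counts of the library), counting error only. Of 16 endothelial markers, 13 were above that limit in all 6 cultures. Their summed level was 9530 to 10600 CPM in β1-WT-GFP and 7740 to 14700 CPM in β1-K794Q-GFP cells, and the tight junction gene Cldn5 was at 0 in β1-K794Q-GFP culture B. Of 12 mesenchymal markers, none was above the limit in all cultures. Their sum was 87.3 to 195 CPM in β1-WT-GFP and 2.84 to 3.85 CPM in β1-K794Q-GFP cells, with Thy1, Twist1, Dcn and Lum at 0 everywhere. The blood list, of 8 genes, summed to 37.6 to 88.6 CPM in β1-WT-GFP and 31.1 to 103 CPM in β1-K794Q-GFP cells, and the 7 epithelial genes to at most 0.592 CPM in any culture. The part of these lists in the results below was not tested. Itgb1, to which reads of the human chimera may also align, had 1146, 2677 and 1180 CPM with β1-K794Q-GFP (cultures A, B, C). With β1-WT-GFP it had 733.1, 914.9 and 1354 CPM. The groups overlapped, culture B of β1-K794Q-GFP was far above the others, and the fitted log2 fold change was 0.74 (SE 0.45). β1-WT-GFP culture C stood apart from cultures A and B, from which 23.3% and 21.9% of all tested genes differed by at least 2-fold, against 0.569% between A and B. The counts of genes past the thresholds are therefore also given without it. Culture C was singled out by these values, and without it the β1-WT-GFP spread behind the p values comes from cultures A and B alone.

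Acetyl groups neutralize the positive charge of lysine. On histone tails this loosens chromatin and creates docking sites for bromodomains, and on cytoplasmic proteins such as tubulin it changes stability and partner binding. Acetyltransferases take the acetyl group from acetyl-CoA, and sirtuins use NAD as a cosubstrate, which ties both reactions to metabolism. In endothelial cells, class IIa deacetylases restrain Mef2 transcription factors, and Hdac7 in particular is known for holding vessels together in the mouse embryo.

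None of the 36 tested genes passed both thresholds used for a differentially expressed gene, 2-fold or more in either direction together with p up to 0.05, unadjusted, in edgeR's quasi-likelihood test. Of all tested genes, 603 (5.19%) passed them, 404 of them higher with β1-K794Q-GFP and 199 lower. No acetylation gene reached 0.05 before adjustment, a level reached by 10.2% of all genes, and the same count of 0 came from DESeq2 and from edgeR's likelihood ratio test. The smallest unadjusted p of the quasi-likelihood test was 0.0758 and the smallest Benjamini-Hochberg adjusted p was 0.567, where 0.181% of all genes reached an adjusted p of 0.05 or less. In 21 of the 36 genes the fitted log2 fold change was negative (58.3%, against 51.6% of all genes), and in 15 it was positive. Their median log2 fold change was -0.07, beside -0.02 over all tested genes. In such bulk samples, a change in the share of cells that express a gene cannot be told apart from a change in its RNA per cell.

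For most of the 36 genes a 2-fold difference lay outside the 95% interval, although not always by a wide margin. In 27 of the 36 (75%) the 95% interval of the fold change lay within 2-fold in either direction, compared with 48.0% of all tested genes. Among these 27, the fitted log2 fold change ran from -0.40 for Hdac7 to 0.42 for Sirt6. Acetylation genes were read at a higher level than the typical gene, with a median of 51.6 CPM against 34.6 CPM, and their standard errors were smaller, with a median of 0.24 against 0.30 on the log2 scale. The part of this depth in the narrower intervals was not tested. The 9 genes whose interval reached past 2-fold were Hdac9, Hdac10, Sirt5, Kat2a, Kat2b, Hat1, Esco2, Atat1 and Brd3. For 32 of 36 genes the fitted log2 fold change was under 0.5 in size, and Hdac9 was the 1 gene at or above 1.

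**Figure D1:**
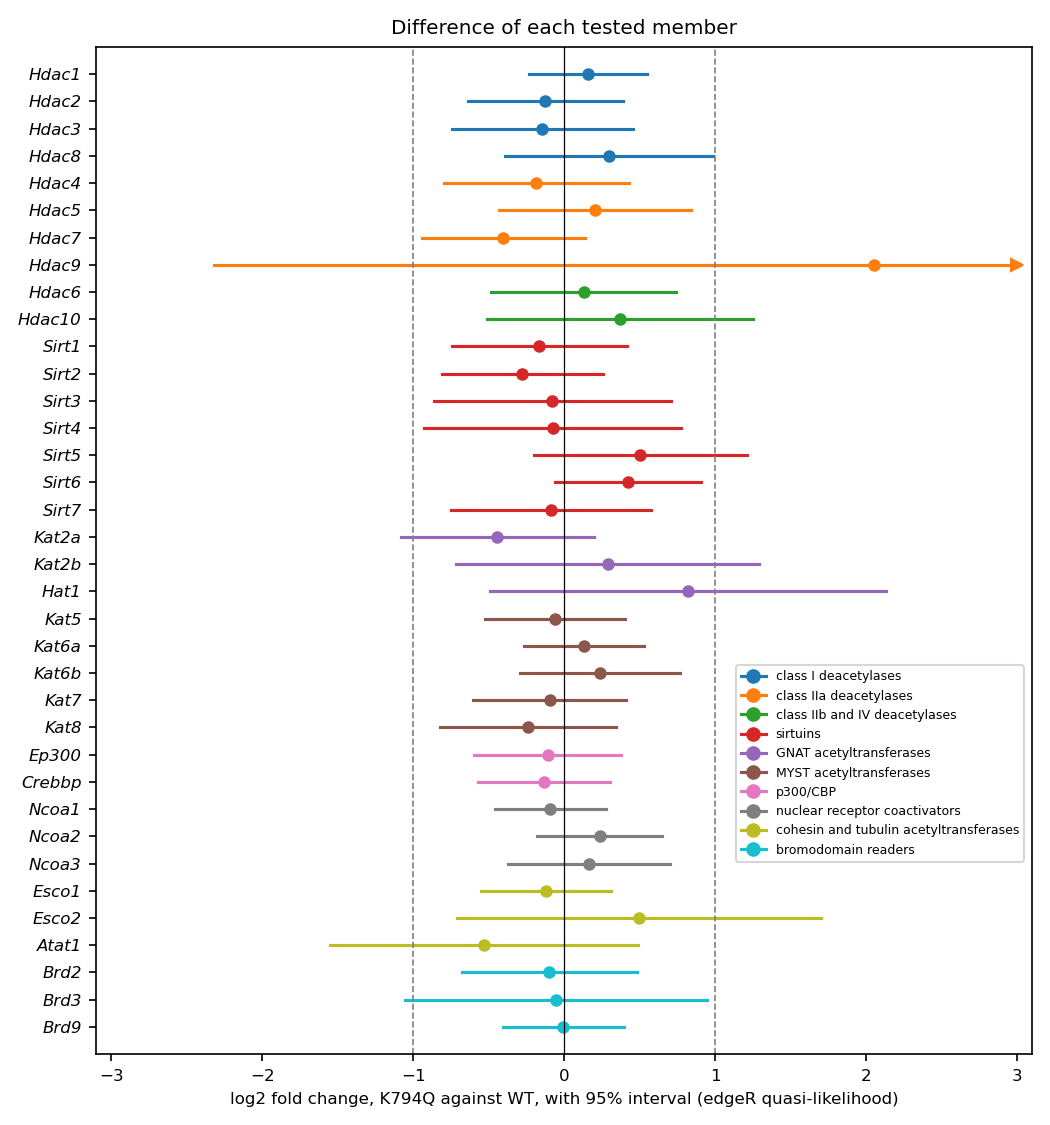
Fitted log2 fold change of each of the 36 tested genes, β1-K794Q-GFP against β1-WT-GFP (horizontal axis), with bars for the 95% interval of edgeR's quasi-likelihood fit, colours for the class and dashed lines at 2-fold in either direction. For 27 genes the bar lies between the dashed lines, and the bar of Hdac9 runs past the right edge (arrow).

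Levels differed far more between the genes than between the groups. Scaled to exon length, as CPM per kilobase of exon averaged over the 6 cultures, Brd2 was the most abundant at 49.3, followed by Hdac7 at 36.0, Ncoa3 at 30.5, Kat7 at 29.6, Kat2a at 29.3, Kat6a at 27.0 and Crebbp at 20.3. The ranges over cultures of Brd2 and Hdac7 overlapped, from 37.4 to 60.4 and from 25.1 to 46.2, and so did those of each next pair in this order except Kat6a (24.2 to 29.6) and Crebbp (16.8 to 22.2). At the low end were Sirt3 at 0.959, Sirt5 at 0.801 and Hdac9 at 0.165. Hdac11 had 0 counts in all 6 cultures. The sums per kilobase were close in both groups: the 10 tested zinc-dependent deacetylases gave 104 ± 14.4 in β1-K794Q-GFP and 112 ± 5.5 in β1-WT-GFP cells, the 7 sirtuins 44.7 ± 3.41 and 47.2 ± 8.51, the 16 acetyltransferases 231 ± 12.9 and 231 ± 6.65, and the 3 bromodomain genes 71.8 ± 5.62 and 75.9 ± 12.4 (SD, n = 3). In each of these sums the difference was smaller than the SD of at least 1 group. Of the smaller classes, class IIa alone differed by more than the SD of either group, with 44.3 ± 6.15 in β1-K794Q-GFP and 53.1 ± 5.86 in β1-WT-GFP cells.

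**Figure D2:**
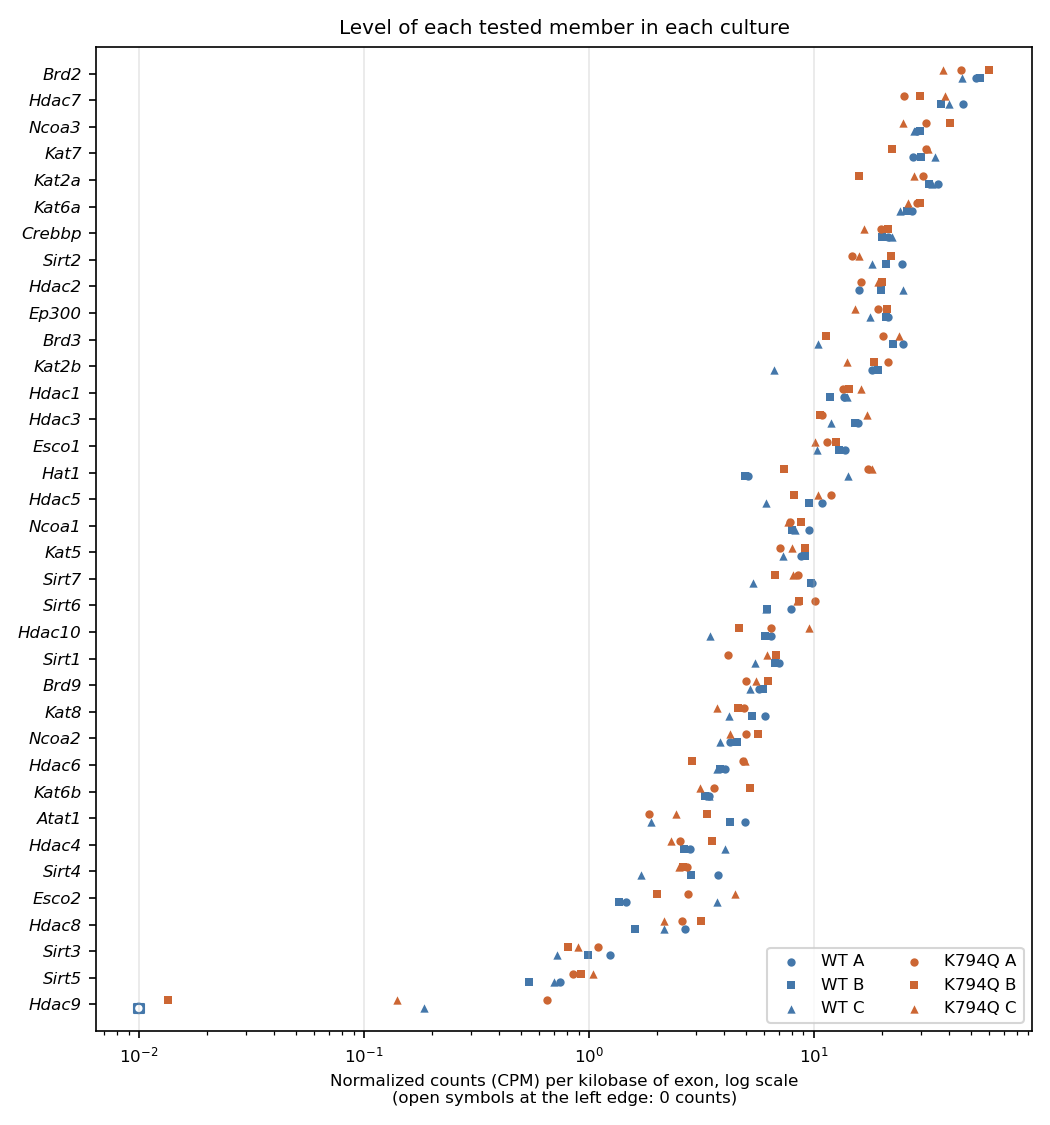
Level of the 36 tested genes in each culture, as CPM per kilobase of exon on a log scale (horizontal axis), ordered by the mean of the 6 cultures, with blue for β1-WT-GFP, orange for β1-K794Q-GFP and the symbol for the culture letter. The order runs from Brd2 (mean 49.3) to Hdac9 (mean 0.165), which had 0 counts in cultures A and B of β1-WT-GFP (open symbols at the left edge).

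Of the class I deacetylases, Hdac1, Hdac2 and Hdac3 are the nuclear enzymes of the Sin3, NuRD, CoREST and NCoR complexes. All 4 class I genes had an interval within 2-fold, with log2 fold changes from -0.15 (Hdac3) to 0.30 (Hdac8). Hdac2, the most abundant of them per kilobase, had 72.8, 90.3 and 86.0 CPM with β1-K794Q-GFP and 71.0, 89.0 and 111.8 CPM with β1-WT-GFP (cultures A, B, C). The highest and the lowest value both belonged to β1-WT-GFP cells, and the fitted log2 fold change was -0.13 (SE 0.21; adjusted p = 0.913 in edgeR's quasi-likelihood test). Its close paralog Hdac1 stood at 50.6 ± 4.86 CPM with β1-K794Q-GFP and 45.4 ± 4.18 CPM with β1-WT-GFP (SD, n = 3), with a fold change between 0.85 and 1.46 by the 95% interval. Hdac3, the catalytic subunit of the NCoR and SMRT complexes, ranged from 43.0 to 70.1 CPM in the 6 cultures, and the X-linked Hdac8, a deacetylase of cohesin, from 7.80 to 15.3 CPM.

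The class IIa deacetylases shuttle between cytoplasm and nucleus under the control of phosphorylation. Hdac7, the second most abundant acetylation gene per kilobase, had 169.7, 199.6 and 259.5 CPM with β1-K794Q-GFP (cultures A, B, C). Its values with β1-WT-GFP were 311.9, 249.5 and 270.3 CPM. Culture C of β1-K794Q-GFP lay above culture B of β1-WT-GFP, so the groups overlapped, with cultures A and B of β1-K794Q-GFP below all the others. The log2 fold change was -0.40 (SE 0.22, 95% interval -0.94 to 0.14, adjusted p = 0.646 in edgeR's quasi-likelihood test). Hdac5 stood at 89.4 ± 16.4 CPM in β1-K794Q-GFP and 77.6 ± 21.3 CPM in β1-WT-GFP cells, and Hdac4 at 44.1 ± 10.2 and 50.1 ± 11.9 CPM (SD, n = 3). Hdac4 lies on chromosome 1, where the genes around it were also lower in β1-K794Q-GFP cells: its log2 fold change was -0.18, and 0.47 once the running median of 25 neighbouring genes had been taken into the fit.

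Hdac9, the fourth class IIa enzyme, was the gene that varied most between cultures. It was counted 99, 2 and 24 times with β1-K794Q-GFP and 0, 0 and 39 times with β1-WT-GFP (cultures A, B, C), which correspond to 9.53, 0.197 and 2.06 CPM and to 0, 0 and 2.72 CPM. Each group thus held a culture at or under 3 counts and at least 1 culture well above, and the groups overlapped. The fit gave a log2 fold change of 2.05 (SE 1.81) and an adjusted p of 0.808 in edgeR's quasi-likelihood test. Omitting culture A of β1-K794Q-GFP brought it to 0.28. With culture C of β1-WT-GFP omitted, only 0 counts remained in that group, so Hdac9 passed the low count filter solely through β1-K794Q-GFP cells, where it is high. Its fitted value of 8.41 in that fit, which was past both thresholds, is no bound and gives no support. Cultures A and B of β1-WT-GFP, with 0 counts, lay at or under the 3-count floor, on average 0.281 CPM. The β1-K794Q-GFP mean of 3.93 CPM was 14.0 times this floor. That ratio leaves out β1-WT-GFP culture C, so it is no bound on the difference between the groups and gives no support. With culture C the β1-WT-GFP mean was 0.905 CPM. The ratio rested on β1-K794Q-GFP culture A, by itself 33.9 times the floor, since the mean of cultures B and C, 1.13 CPM, was 4.02 times it. By the same floor β1-WT-GFP culture C was at least 9.67-fold above the other cultures of its own group.

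Promoters of the family were compared as sequence. RefSeq (GRCm38.p6) held 43 promoters for 29 of the 37 genes and 32851 in all, and the 250 bases before each start were used. The ratio of observed to expected CpG had a median of 0.761 in the 43 promoters of the family and 0.373 in all promoters, and the GC content 61.2% and 52.4%. GGGCGG, the core of a GC box, was found on either strand in 27 (62.8%) against 32.7% of all promoters, CCAAT in 14 (32.6%) against 33.8%, and TATAAA in 2 (4.65%) against 12.4%. Some windows of the same gene overlap almost fully, as for Brd9, Kat6b and Atat1, and each was counted. The 32851 promoters were not limited to genes expressed in these cells. Whether the differences are particular to the family was not tested. Both Hdac9 promoters are printed because Hdac9 had the largest fitted difference and is at the low end of the CpG ratio. The first, at chr12:34917096-34917345, holds no CpG at all, and the second, at chr12:34528890-34529139, has a ratio of 0.175. Both are given 5′ to 3′ on the minus strand. The first has a TATAAA match, in capitals, and the second has none.
Hdac9 promoter 1: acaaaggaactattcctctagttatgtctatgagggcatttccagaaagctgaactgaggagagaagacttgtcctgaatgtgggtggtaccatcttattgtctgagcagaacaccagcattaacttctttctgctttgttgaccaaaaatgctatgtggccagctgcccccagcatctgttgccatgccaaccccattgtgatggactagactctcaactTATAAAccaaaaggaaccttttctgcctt
Hdac9 promoter 2: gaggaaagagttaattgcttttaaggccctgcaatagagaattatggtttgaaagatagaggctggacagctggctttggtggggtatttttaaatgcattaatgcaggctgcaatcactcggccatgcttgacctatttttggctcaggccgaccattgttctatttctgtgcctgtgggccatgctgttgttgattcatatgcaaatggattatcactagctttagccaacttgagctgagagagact

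The class IIb enzymes act largely in the cytoplasm, Hdac6 on tubulin and cortactin and Hdac10 on polyamines. Hdac10, the more abundant per kilobase, had 21.8, 15.8 and 32.3 CPM with β1-K794Q-GFP and 21.9, 20.6 and 11.6 CPM with β1-WT-GFP (cultures A, B, C). Its highest value was in β1-K794Q-GFP culture C and its lowest in β1-WT-GFP culture C, with the others between, and the log2 fold change of 0.37 (SE 0.36) had an adjusted p of 0.833 in edgeR's quasi-likelihood test. Hdac6 was at 24.6 ± 6.75 CPM with β1-K794Q-GFP and 22.4 ± 0.994 CPM with β1-WT-GFP (SD, n = 3). For Hdac11, the single class IV enzyme, 0 counts allow no more than the floor of each culture, 0.209 to 0.3 CPM.

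The 7 sirtuins divide by compartment: Sirt1, Sirt6 and Sirt7 act in the nucleus, Sirt2 mainly in the cytoplasm and Sirt3, Sirt4 and Sirt5 in mitochondria. In 3 of the 36 tested genes (8.33%) the cultures of the groups did not overlap, against 16.6% of all tested genes, a share below the background. The 2 of these that were higher in β1-K794Q-GFP cells were Sirt6 and Sirt5, while the 7 sirtuins had a median log2 fold change of -0.08. Sirt6 (chromosome 10, 81621785 to 81627797, minus strand), a histone deacetylase linked to glycolysis and DNA repair, had 28.1, 24.0 and 23.6 CPM with β1-K794Q-GFP and 22.04, 17.2 and 17.1 CPM with β1-WT-GFP (cultures A, B, C). The lowest β1-K794Q-GFP culture lay just above the highest β1-WT-GFP culture. The log2 fold change was 0.42 (SE 0.20, 95% interval -0.06 to 0.91; adjusted p = 0.567 in edgeR's quasi-likelihood test), and an exact permutation test of the 3 cultures against 3, two-sided, gave p = 0.1, the smallest it allows. Genes around Sirt6 on chromosome 10 were also higher, and with the running median of its 25 neighbours in the fit its log2 fold change was -0.02.

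Sirt5, a mitochondrial enzyme that removes succinyl and malonyl groups, had 5.20, 5.63 and 6.36 CPM with β1-K794Q-GFP and 4.55, 3.30 and 4.25 CPM with β1-WT-GFP (cultures A, B, C). All 3 β1-K794Q-GFP cultures were above all 3 β1-WT-GFP cultures, at a level near the low end of the family. Its log2 fold change was 0.50 (SE 0.29, adjusted p = 0.666 in edgeR's quasi-likelihood test; exact permutation test, two-sided, p = 0.1), and the neighbouring genes left it at 0.56.

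Sirt2, a tubulin deacetylase and the most abundant sirtuin per kilobase, had 74.5, 111.0 and 80.2 CPM with β1-K794Q-GFP and 124.8, 105.5 and 91.7 CPM with β1-WT-GFP (cultures A, B, C). Cultures A and C of β1-K794Q-GFP were lower than every β1-WT-GFP culture and culture B was not, and the log2 fold change was -0.28 (SE 0.22, adjusted p = 0.775 in edgeR's quasi-likelihood test). Sirt1, which deacetylates p53 and forkhead factors, stood at 30.5 ± 7.38 CPM in β1-K794Q-GFP and 34.2 ± 4.29 CPM in β1-WT-GFP cells, and the nucleolar Sirt7 at 40.2 ± 4.84 and 42.7 ± 13.1 CPM (SD, n = 3). The mitochondrial Sirt3 and Sirt4 were between 4.11 and 9.01 CPM in every culture, with log2 fold changes of -0.08 each. Exons of Sirt3 share 5.73% of their bases with Psmd13 and 6.998% with Ric8 on the opposite strand, and whether the counting used strand was not given in the sources used here.

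Among the acetyltransferases, the GNAT family was the class with no interval within 2-fold. Kat2a (chromosome 11, 100704746 to 100712465, minus strand), the Gcn5 enzyme of the SAGA and ATAC coactivators, had 106.5, 55.5 and 97.5 CPM with β1-K794Q-GFP and 123.5, 112.9 and 116.6 CPM with β1-WT-GFP (cultures A, B, C). It was the 1 gene of the family whose β1-K794Q-GFP cultures all lay below the β1-WT-GFP cultures, by a narrow gap for culture A and a wide one for culture B. The log2 fold change was -0.44 (SE 0.26, 95% interval -1.08 to 0.19), with an adjusted p of 0.674 in edgeR's quasi-likelihood test. An exact permutation test (two-sided) gave p = 0.1. With the running median of neighbouring genes in the fit, the log2 fold change of Kat2a was -0.21. Leaving out 1 culture gave -0.62 to -0.20 for Kat2a, with -0.20 when culture B of β1-K794Q-GFP was omitted. Its paralog Kat2b (PCAF) had 104.4, 89.9 and 68.3 CPM with β1-K794Q-GFP and 88.2, 94.3 and 32.5 CPM with β1-WT-GFP (cultures A, B, C). Here β1-WT-GFP culture C stood alone, at 0.356 times the mean of cultures A and B, and without it the log2 fold change of Kat2b went from 0.29 to -0.05.

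Hat1 (chromosome 2, 71388958 to 71441622, plus strand), which acetylates newly made histone H4 before its deposition on chromatin, had 50.2, 21.3 and 52.6 CPM with β1-K794Q-GFP (cultures A, B, C). With β1-WT-GFP it had 14.8, 14.3 and 41.2 CPM. Cultures A and C of β1-K794Q-GFP were the highest, β1-WT-GFP culture C came next and β1-K794Q-GFP culture B was nearer to cultures A and B of β1-WT-GFP. With all 6 cultures the log2 fold change was 0.82 (SE 0.54, 95% interval -0.49 to 2.13, adjusted p = 0.718 in edgeR's quasi-likelihood test). With culture C of β1-WT-GFP omitted it was 1.52 (SE 0.44, unadjusted p = 0.0167, adjusted p = 0.200 by the same edgeR test), which passed both thresholds.

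The Hat1 promoter is printed as the contrast to Hdac9: at chr2:71389010-71389259 on the plus strand of GRCm38.p6 it has a CpG ratio of 0.946, and its capitals mark a CCAAT match (read as ATTGG, on the opposite strand) and a GGGCGG match.
Hat1 promoter: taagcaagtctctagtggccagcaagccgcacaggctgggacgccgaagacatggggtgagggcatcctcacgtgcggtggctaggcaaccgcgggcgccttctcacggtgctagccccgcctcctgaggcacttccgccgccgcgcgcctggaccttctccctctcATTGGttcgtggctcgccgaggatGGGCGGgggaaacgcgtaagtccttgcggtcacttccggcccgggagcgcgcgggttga

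The MYST enzymes acetylate histones in large complexes. The 5 genes summed to 73.4 ± 2.51 CPM per kilobase with β1-K794Q-GFP and 73.4 ± 0.343 with β1-WT-GFP (SD, n = 3), and all 5 intervals lay within 2-fold. Kat7 (HBO1), which acetylates histone H3 at replication origins and is the most abundant of them per kilobase, had 174.5, 123.4 and 178.2 CPM with β1-K794Q-GFP and 152.1, 165.6 and 190.8 CPM with β1-WT-GFP (cultures A, B, C). The lowest value was in β1-K794Q-GFP culture B and the highest in β1-WT-GFP culture C, and the log2 fold change was -0.10 (SE 0.21, adjusted p = 0.935 in edgeR's quasi-likelihood test). Kat6a stood at 259.2 ± 15.7 CPM in β1-K794Q-GFP and 236.7 ± 14.1 CPM in β1-WT-GFP cells, and its paralog Kat6b at 67.1 ± 18.3 and 56.9 ± 1.55 CPM (SD, n = 3). Kat5 (Tip60), the catalytic subunit of NuA4, was at 28.3 ± 3.73 and 29.5 ± 3.40 CPM, and Kat8 (MOF), an acetyltransferase of histone H4, at 12.7 ± 1.77 and 15.03 ± 2.75 CPM (SD, n = 3). Of the exonic bases of Kat5, 12.1% overlap Rnaseh2c on the opposite strand.

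Ep300 and Crebbp encode the paralogous coactivators p300 and CBP. Crebbp had 268.9, 289.8 and 227.5 CPM with β1-K794Q-GFP and 289.8, 272.3 and 300.7 CPM with β1-WT-GFP (cultures A, B, C). The groups overlapped, with β1-K794Q-GFP culture C the lowest, and the log2 fold change was -0.13 (SE 0.18, adjusted p = 0.892 in edgeR's quasi-likelihood test). Ep300 was at 265.1 ± 42.3 CPM with β1-K794Q-GFP and 285.7 ± 27.4 CPM with β1-WT-GFP (SD, n = 3), and the 95% interval of its fold change ran from 0.662 to 1.30.

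The nuclear receptor coactivators, of the p160 family, recruit p300 and CBP to DNA-bound receptors. Ncoa3, the most abundant per kilobase, had 248.1, 319.1 and 196.2 CPM with β1-K794Q-GFP and 227.1, 234.1 and 220.3 CPM with β1-WT-GFP (cultures A, B, C). The β1-WT-GFP values lay close together and within the range of the β1-K794Q-GFP values, and the log2 fold change was 0.16 (SE 0.22, adjusted p = 0.894 in edgeR's quasi-likelihood test). Ncoa1 was at 69.3 ± 4.91 and 73.9 ± 6.97 CPM, and Ncoa2 at 77.7 ± 11.0 and 66.0 ± 5.74 CPM, in β1-K794Q-GFP and β1-WT-GFP cells (SD, n = 3).

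Esco1 and Esco2 acetylate the cohesin subunit Smc3, Esco1 through interphase and Esco2 during DNA replication. Esco1, the more abundant per kilobase, had 58.3, 63.8 and 51.8 CPM with β1-K794Q-GFP and 70.3, 66.2 and 52.7 CPM with β1-WT-GFP (cultures A, B, C). The ranges overlapped and culture C was the lowest in each group, with a log2 fold change of -0.12 (SE 0.18, adjusted p = 0.898 in edgeR's quasi-likelihood test). Esco2 had 18.4, 13.3 and 29.7 CPM with β1-K794Q-GFP and 9.71, 9.10 and 24.7 CPM with β1-WT-GFP (cultures A, B, C). As for Hat1, β1-WT-GFP culture C was far above cultures A and B, at 2.63 times their mean (2.83 times for Hat1), and β1-K794Q-GFP culture B was the lowest of its group. The log2 fold change of Esco2 was 0.49 (SE 0.50, adjusted p = 0.838) with all cultures and 1.13 (SE 0.39, unadjusted p = 0.0306, adjusted p = 0.256) without β1-WT-GFP culture C, both in edgeR's quasi-likelihood test.

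Hat1 and Esco2 act in S phase, and genes of DNA replication were read beside them. The 11 replication genes (Mcm2 to Mcm7, Pcna, Cdc45, Cdc6, Gins2 and Rrm2) were chosen after the values had been seen. Their summed level was 1266, 422.4 and 1495 CPM with β1-K794Q-GFP and 372.3, 330.3 and 1026 CPM with β1-WT-GFP (cultures A, B, C). The cultures high for Hat1 (A and C of β1-K794Q-GFP and C of β1-WT-GFP) were the cultures high for this sum. None of the 11 passed both thresholds in edgeR's quasi-likelihood test, and their median log2 fold change was 0.91. The part of cell cycle state in the levels of Hat1 and Esco2 was not tested.

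Atat1, the α-tubulin acetyltransferase, is the enzyme that opposes Hdac6 and Sirt2 on microtubules. It had 8.47, 15.4 and 11.2 CPM with β1-K794Q-GFP and 22.7, 19.4 and 8.64 CPM with β1-WT-GFP (cultures A, B, C). Cultures A and B of β1-WT-GFP were above all others, while β1-WT-GFP culture C fell within the β1-K794Q-GFP range. The log2 fold change was -0.53 (SE 0.42, adjusted p = 0.775 in edgeR's quasi-likelihood test). With culture C of β1-WT-GFP omitted it was -0.84, with an unadjusted p of 0.0339 and an adjusted p of 0.265 in the same edgeR test, short of the fold threshold. Atat1 was chosen after its values were seen, and the β1-WT-GFP spread in that fit comes from cultures A and B alone.

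**Figure D3:**
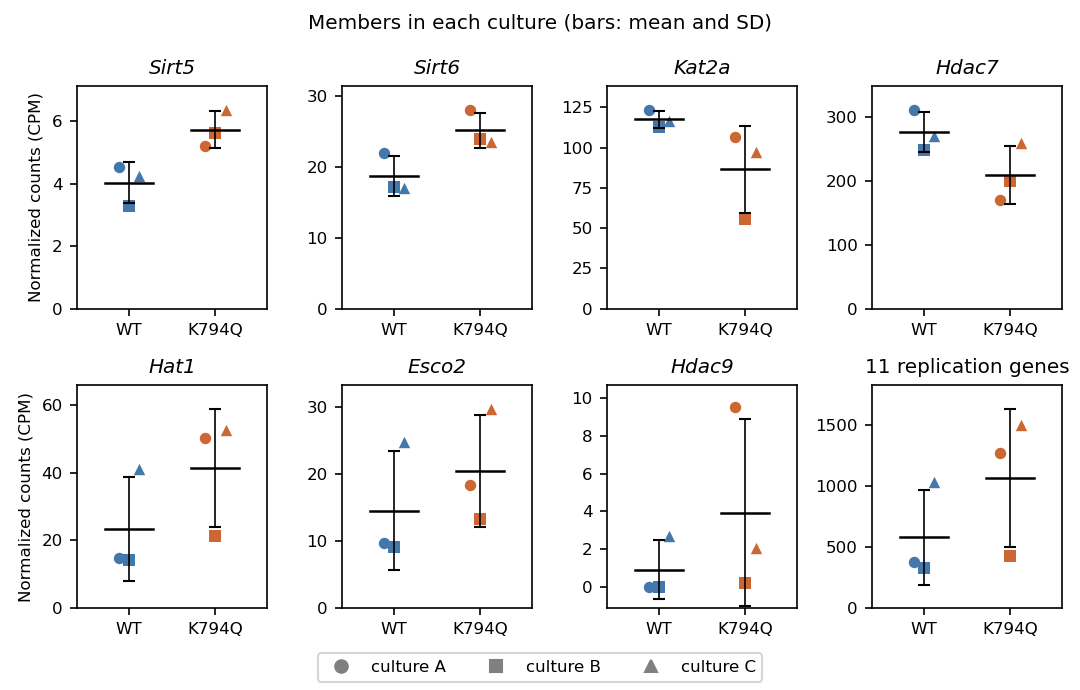
CPM in each culture (vertical axes, points, with the symbol for the culture letter) of 7 acetylation genes and of the sum of 11 DNA replication genes, with the mean and SD of 3 cultures per group. Sirt5 and Sirt6 lie higher and Kat2a lower in every β1-K794Q-GFP culture, Hdac7 overlaps, and in Hat1, Esco2, Hdac9 and the replication genes β1-WT-GFP culture C (triangle) stands above cultures A and B.

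The bromodomain genes bind acetyl-lysine rather than change it. Brd2, a BET protein that keeps acetylated chromatin accessible to transcription, had 353.7, 472.6 and 292.5 CPM with β1-K794Q-GFP and 411.8, 427.1 and 358.4 CPM with β1-WT-GFP (cultures A, B, C). The β1-WT-GFP values lay within the β1-K794Q-GFP range, and the log2 fold change was -0.10 (SE 0.24, adjusted p = 0.944 in edgeR's quasi-likelihood test). Brd3, also a BET protein, had 148.5, 82.9 and 176.2 CPM with β1-K794Q-GFP and 182.3, 164.4 and 76.7 CPM with β1-WT-GFP (cultures A, B, C). In each group 1 culture was low, B in β1-K794Q-GFP and C in β1-WT-GFP, and the log2 fold change was -0.05 with an interval of -1.05 to 0.95. Brd9, a subunit of the non-canonical BAF remodelling complex, was at 38.9 ± 4.44 CPM with β1-K794Q-GFP and 39.1 ± 2.47 CPM with β1-WT-GFP (SD, n = 3), with a log2 fold change of -0.01 (SE 0.17).

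Cultures of the same group differed unevenly. Between cultures A and B of β1-WT-GFP, 0 of the 36 genes were 2-fold or more apart, while 7 (19.4%) were so between A and C: Hdac9, Sirt4, Kat2b, Hat1, Esco2, Atat1 and Brd3. Of these 7, the 6 other than Sirt4 were also 2-fold apart between β1-WT-GFP cultures B and C (16.7%). Within β1-K794Q-GFP cells, 2 genes (Hdac9 and Hat1) were 2-fold apart between A and B, 1 (Hdac9) between A and C and 5 (Hdac9, Hdac10, Hat1, Esco2 and Brd3) between B and C. The matching shares of all tested genes were 23.3% and 21.9% for the β1-WT-GFP pairs with culture C and 17.2%, 7.78% and 22.1% for the β1-K794Q-GFP pairs. With culture C of β1-WT-GFP omitted, 3 of the 36 genes (8.33%) passed both thresholds, namely Hdac9, Hat1 and Esco2, each toward higher levels with β1-K794Q-GFP, beside 8.38% of all genes tested in that fit, a share no higher than the background. Hdac9 entered that fit only through the group where it is high.

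**Figure D4:**
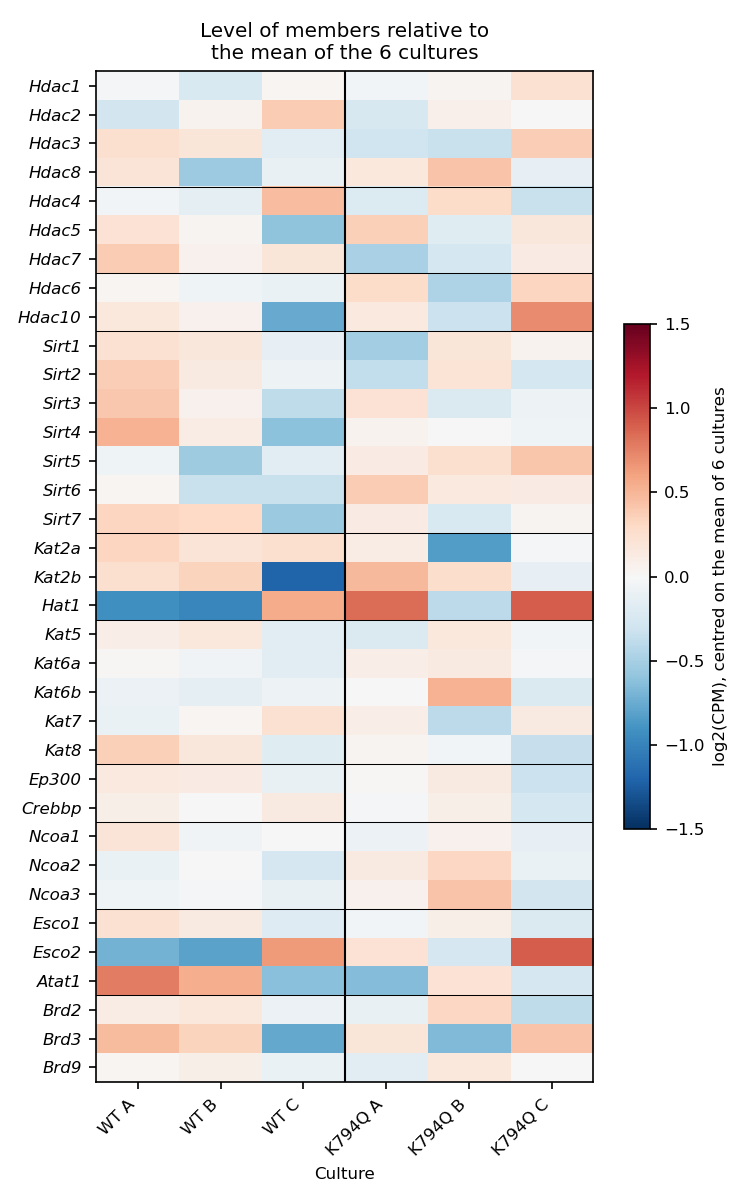
log2 CPM of the 35 genes with more than 3 counts in every culture, centred on the mean of the 6 cultures (colour scale), in rows grouped by class and columns by culture. Hat1 and Esco2 are high and Kat2b, Atat1 and Brd3 low in β1-WT-GFP culture C against cultures A and B.

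The partners of these enzymes were counted in 6 lists, written from general knowledge, with 155 genes of which 149 were tested. In edgeR's quasi-likelihood test 7 of the 149 (4.7%) passed both thresholds, against 5.19% of all tested genes, a share no higher than the background. All 7 were higher with β1-K794Q-GFP, as were 404 of the 603 over all genes. None of the 7 reached an adjusted p of 0.05. With culture C of β1-WT-GFP omitted, 12 of 149 (8.05%) passed, beside 8.38% of all genes in that fit. The deacetylase corepressor subunits (Sin3, NuRD, CoREST, NCoR and related complexes) had 0 of 34 past both thresholds, with a median log2 fold change of -0.03 and 26 intervals (76.5%) within 2-fold. The acetyltransferase complex subunits had 1 of 34, with 28 intervals (82.4%) within 2-fold, and the 8 other acetyltransferases had 0. The other bromodomain and YEATS readers had 2 of 32 (6.25%) and the genes of acetyl-CoA and NAD supply 2 of 23 (8.7%). The kinases and Mef2 partners of class IIa deacetylases had 2 of 18 (11.1%). In the last pair of lists 7 of 23 (30.4%) and 7 of 18 (38.9%) intervals lay within 2-fold. Over all 6 lists 98 intervals (65.8%) did, against 48.0% of all tested genes. The cultures of the groups did not overlap in 24 of the 149 genes, against 16.6% of all tested genes.

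Both genes of the class IIa list were transcription factors. Mef2c, a target of repression by Hdac4, Hdac5, Hdac7 and Hdac9, had 433.8, 570.5 and 342.2 CPM with β1-K794Q-GFP and 194.6, 215.4 and 135.7 CPM with β1-WT-GFP (cultures A, B, C). Klf4, a Krüppel-like factor of quiescent endothelium, had 192.2, 283.4 and 152.7 CPM with β1-K794Q-GFP and 71.0, 72.6 and 101.7 CPM with β1-WT-GFP (cultures A, B, C). The groups did not overlap for either gene. The log2 fold change was 1.30 for Mef2c (SE 0.29, adjusted p = 0.169) and 1.36 for Klf4 (SE 0.29, adjusted p = 0.161) in edgeR's quasi-likelihood test. Both genes passed both thresholds in all 6 leave-one-out fits, which reuse the cultures that named them. The part of class IIa deacetylases in these levels was not tested.

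Phf17 (Jade1), a scaffold of the Kat7 complex, had 58.3, 86.1 and 29.2 CPM with β1-K794Q-GFP and 14.5, 21.4 and 23.6 CPM with β1-WT-GFP (cultures A, B, C). Acss2, which makes acetyl-CoA from acetate, had 6.26, 5.23 and 2.92 CPM with β1-K794Q-GFP and 2.01, 1.90 and 1.32 CPM with β1-WT-GFP (cultures A, B, C). Neither gene overlapped between the groups, although culture C of β1-K794Q-GFP was close to the β1-WT-GFP range for both. Their log2 fold changes were 1.54 (SE 0.42, adjusted p = 0.263) and 1.46 (SE 0.42, adjusted p = 0.290) in edgeR's quasi-likelihood test, and Acss2 did not pass both thresholds without β1-K794Q-GFP culture A.

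Baz2a, the bromodomain subunit of the nucleolar remodelling complex NoRC, had 727.1, 439.0 and 567.7 CPM with β1-K794Q-GFP and 262.1, 234.4 and 166.5 CPM with β1-WT-GFP (cultures A, B, C). Cs, the citrate synthase that consumes mitochondrial acetyl-CoA, had 695.2, 363.9 and 586.1 CPM with β1-K794Q-GFP and 155.1, 174.0 and 288.7 CPM with β1-WT-GFP (cultures A, B, C). The groups were apart for both genes, with log2 fold changes of 1.39 (SE 0.29, adjusted p = 0.153) and 1.41 (SE 0.36, adjusted p = 0.228) in edgeR's quasi-likelihood test. Both lie on chromosome 10 among genes that were higher together in β1-K794Q-GFP cells, and with the running median of 25 neighbours in the fit they had log2 fold changes of 0.14 and 0.08, and neither passed both thresholds. Brdt, the testis BET gene, had 2.696, 0.888 and 3.27 CPM with β1-K794Q-GFP and 0.787, 1.00 and 0.279 CPM with β1-WT-GFP (cultures A, B, C), so that the groups overlapped. Its log2 fold change of 1.74 (SE 0.70, adjusted p = 0.474 in edgeR's quasi-likelihood test) held up in 1 of the 6 leave-one-out fits.

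**Figure D5:**
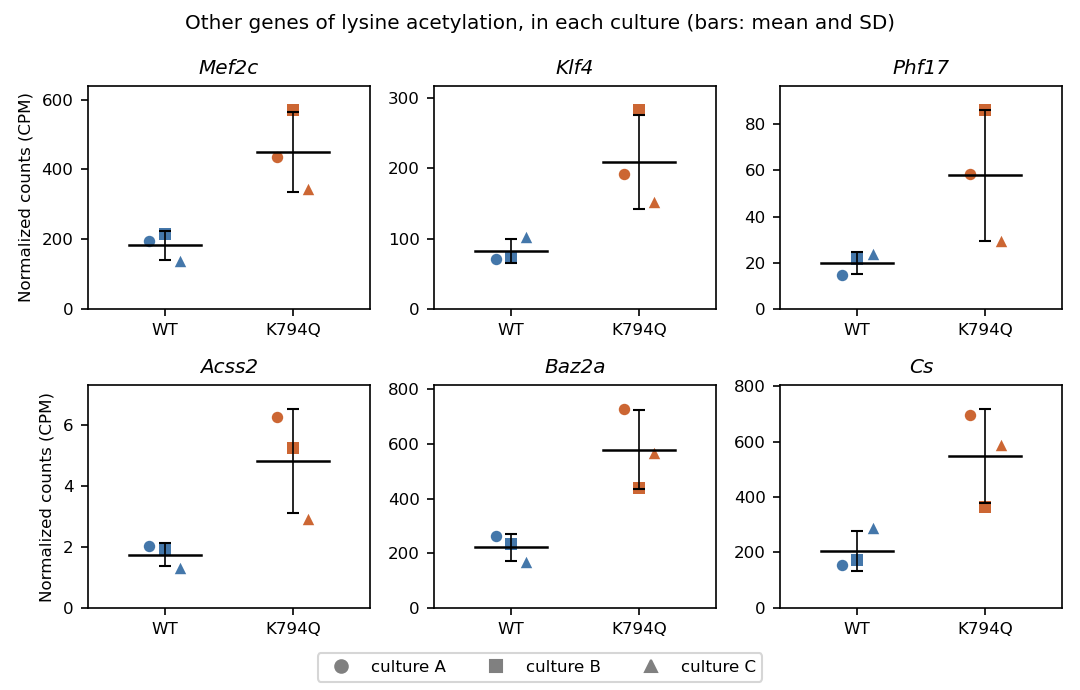
CPM in each culture (vertical axes, points, with the symbol for the culture letter), with the mean and SD of 3 cultures per group. Shown are 6 of the 7 partner genes past both thresholds, without Brdt, whose groups overlapped. With Brdt left out, every β1-K794Q-GFP culture lies above every β1-WT-GFP culture in all 6. Baz2a and Cs are the 2 on chromosome 10.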

How the data were processed

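RNA of 3 β1-WT-GFP and 3 β1-K794Q-GFP cultures was measured. The authors deposited raw counts of reads per gene symbol, with no normalization. The submitters' processing notes name bcl2fastq 2.20.0, STAR 2.7.4a, HTSeq 0.9.1, edgeR 3.38.4 and the mouse build mm10, and the strand setting of the counting is not given in the sources used here. Reads from overlapping genes on opposite strands may then not be separated. The table held 0 further columns of per-sample values.

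Counts were modelled with edgeR 4.0.16 under R 4.3.3: filterByExpr kept 11608 genes, TMM normalized the libraries, and the quasi-likelihood test compared the groups (two-sided, common dispersion 0.186), with Benjamini-Hochberg adjustment over all tested genes. The same test and thresholds are named in the study's methods. CPM are counts per 1000000 counts of the TMM-scaled library, and cultures of a group were compared on CPM + 0.5, and the standard error is the log2 fold change over the root of its F statistic. The intervals are at 95%. Exact permutation tests of 3 against 3 are two-sided and cannot go below 0.1. Exon lengths and positions came from GENCODE M21 (GRCm38, the same build), matched by symbol for 21777 genes and through a RefSeq synonym for 1278.

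The members and lists were chosen with earlier results of these data known. Of the 37 genes, values per culture are given for those whose groups do not overlap, those that passed both thresholds with all cultures or with any 1 culture left out, and the most abundant per kilobase of each class. Of the partner lists, they are given for genes past both thresholds with all cultures. Kat2b, Atat1 and Brd3 are given too, chosen after their values were seen. The alternatives were other filters (none, at least 10 counts in every culture), RLE normalization, DESeq2 1.42.0, the likelihood ratio test, the culture letter as a block, an offset for 25 neighbouring genes, and leaving out each culture. Culture letters were not taken as pairs in the main fit. The fit was tested on simulated counts with 200 changed genes. Tables came from Python 3.11.15 (numpy 2.4.6, pandas 2.3.3, scipy 1.17.1), plots from matplotlib 3.10.9.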

Additional observations from a re-analysis of the deposited data

How the results depend on the processing

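The count of 0 acetylation genes past both thresholds was the same under 7 of 7 alternatives that kept all cultures, and 0 to 3 when 1 culture was left out, with 3 only without β1-WT-GFP culture C. Over all genes the 603 became 916 with no filter on low counts, 501 to 992 when 1 culture was left out (992 without β1-WT-GFP culture C, 942 without β1-K794Q-GFP culture B), and 425 to 727 under the rest. The 7 partner genes became 5 to 12 when 1 culture was left out. With the culture letter as a replicate block the counts were 571 genes, 0 acetylation genes and 6 partner genes. Same-letter cultures correlated at 0.0947, 0.0548 and 0.0952 after removal of the group means. Of the different-letter pairs, β1-K794Q-GFP culture A with β1-WT-GFP culture B stood at 0.0954, and the others were negative, from -0.152 to -0.0106. The same-letter values were thus all positive but small, and the letters were not treated as pairs.

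The regional offset turned the sign of Hdac4 (0.47), Sirt6 (-0.023), Sirt7 (0.18), Kat5 (0.056), Kat7 (0.0071), Brd3 (0.019) and Brd9 (0.14). Leaving out 1 culture turned the sign in fits of small log2 fold changes, whose ranges were -0.28 to 0.065 for Hdac2, -0.38 to 0.038 for Hdac4, -0.30 to 0.019 for Sirt1, -0.25 to 0.12 for Sirt3, -0.32 to 0.21 for Sirt4, -0.31 to 0.052 for Sirt7, -0.048 to 0.54 for Kat2b, -0.16 to 0.029 for Kat5, -0.19 to 0.061 for Kat7, -0.20 to 0.014 for Ep300, -0.027 to 0.32 for Ncoa3, -0.30 to 0.051 for Brd2, -0.34 to 0.21 for Brd3 and -0.088 to 0.071 for Brd9. The cause was not tested. RLE normalization turned the sign of 0 of the 36 genes.

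With 3 cultures per group and 1 culture of each group apart from the others, a 2-fold difference was not bounded for 9 of the 36 genes, and Sirt3, Sirt4, Sirt5 and Hdac9 were read at under 10 CPM in every culture.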

Other observations

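With β1-WT-GFP culture C left out, 12 of the 149 tested partner genes (8.05%) passed both thresholds in edgeR's quasi-likelihood test, 11 of them higher with β1-K794Q-GFP and 1 lower. Over all genes the share in that fit was 8.38%, against 5.19% with all cultures, so the larger count of partners is not a result about them. The genes that passed in that fit and not with all cultures, named after their values were seen, included the nicotinamide methyltransferase Nnmt (log2 fold change 3.20, SE 0.37, adjusted p = 0.0572), the lactate and acetate carrier Slc16a1 (1.94, SE 0.29, adjusted p = 0.0810), the NAD-synthesizing Nmnat2 (2.91, SE 0.67, adjusted p = 0.143), the nuclear receptor Nr4a1 (2.91, SE 1.01, adjusted p = 0.262) and the bromodomain ATPase Atad2 (1.32, SE 0.45, adjusted p = 0.257). Prkd1, a kinase of class IIa deacetylases, also passed, with a log2 fold change of -1.10 (SE 0.26, adjusted p = 0.154). These 6 did not pass with all 6 cultures in the fit, and the difference between the fits was not tested. In the fit without culture C, the β1-WT-GFP spread comes from cultures A and B alone, between which 0.569% of all tested genes differed by at least 2-fold. Whether any of these 6 entered that fit only through β1-K794Q-GFP cells was not checked.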
